A study of Mus musculus with 15 samples.

Results

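Pericytes and vascular smooth muscle cells wrap the endothelium of blood vessels and are known together as mural cells. In brain, pericytes cover the capillaries and are held there by platelet-derived growth factor B from the endothelium acting on the receptor Pdgfrb, while smooth muscle cells ring the arterioles and carry the contractile apparatus. The 10 genes described here are known markers of these cells: 4 encode contractile or cytoskeletal proteins (Acta2, Tagln, Myh11 and Des) and 6 mark pericytes (Rgs5, Abcc9, Kcnj8, Higd1b, Vtn and Anpep). They were taken as a list of names and make up 10 of the 54232 genes in the tables.

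RNA was sequenced in 15 libraries of tumours grown in the frontal cortex of C57BL/6 mice. All mice carried Nestin Tv-a, which lets avian retroviruses enter Nestin-expressing cells, and p53 fl/fl. All were injected with DF-1 chicken cells that make RCAS viruses, which delivered Cre recombinase, PDGFA (a growth factor) and H3.3 fused to GFP. Tumours were taken when the mice reached a functional end point. Mice of the Atrx-floxed groups carried ATRX fl/fl as well, so that Cre also acts on Atrx, a chromatin remodeller. Floxed tumours given H3.3G34R are called ATRXfl_G34R (n = 4) and those given wild-type H3.3 ATRXfl_WT (n = 4). Tumours with intact Atrx are called p53_G34R (n = 3) when given the mutant histone and p53_WT (n = 4) when given the wild-type one. The labels give neither age nor sex, and do not say that each library is a separate mouse, so p-values measure the spread between these libraries. A title code is shared by ATRXfl_G34R replicates 1 and 4, by p53_G34R replicates 2 and 3, and by p53_WT replicates 3 and 4. The viruses enter Nestin-expressing cells, whereas the mural genes were read from the whole tumour piece. In such bulk RNA fewer mural cells and less RNA per mural cell cannot be told apart.

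Libraries held 22807315 to 35679129 reads in genes. Values of single libraries below are scaled counts, which are reads divided by a size factor set over all 15 libraries. Atrx, the targeted gene, had 1346 to 3124 scaled counts in the 8 floxed libraries and 5143 to 8540.0 in the 7 intact ones, without overlap. Vessel genes set ATRXfl_WT replicate 1 apart: its 18 endothelial genes summed to 119930 scaled counts, against 13253 to 44170 elsewhere. Neuron and myelin genes set p53_WT replicate 3 apart, at 339772 summed scaled counts, against 5795 to 94177 elsewhere.

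All 10 genes were read in every library, with at least 24 reads. Compared per length (RPKM, scaled to exon length and to the reads in genes), Vtn had the highest median over libraries, 31.5, and Rgs5 followed at 29.3 and Acta2 at 17.7. Higd1b, Kcnj8 and Abcc9 lay close together at 5.53, 4.78 and 4.15. Des had 2.97, Anpep 1.74, Tagln 1.59 and Myh11 0.421. Neighbours in this order overlapped widely, since Rgs5 alone ran from 7.55 to 479 on this scale, and Myh11 from 0.113 to 2.44. Per length, the medians of Vtn and Rgs5 were thus far above those of Tagln and Myh11, the transcripts most closely tied to smooth muscle. Other pericyte genes were present as well: all 19 listed passed the filter used in each test, a mean of at least 10. Pdgfrb, the receptor gene named above, ran from 1092 to 21450 scaled counts. Which cells in the tumour piece expressed Pdgfrb was not tested.

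**Figure D1:**
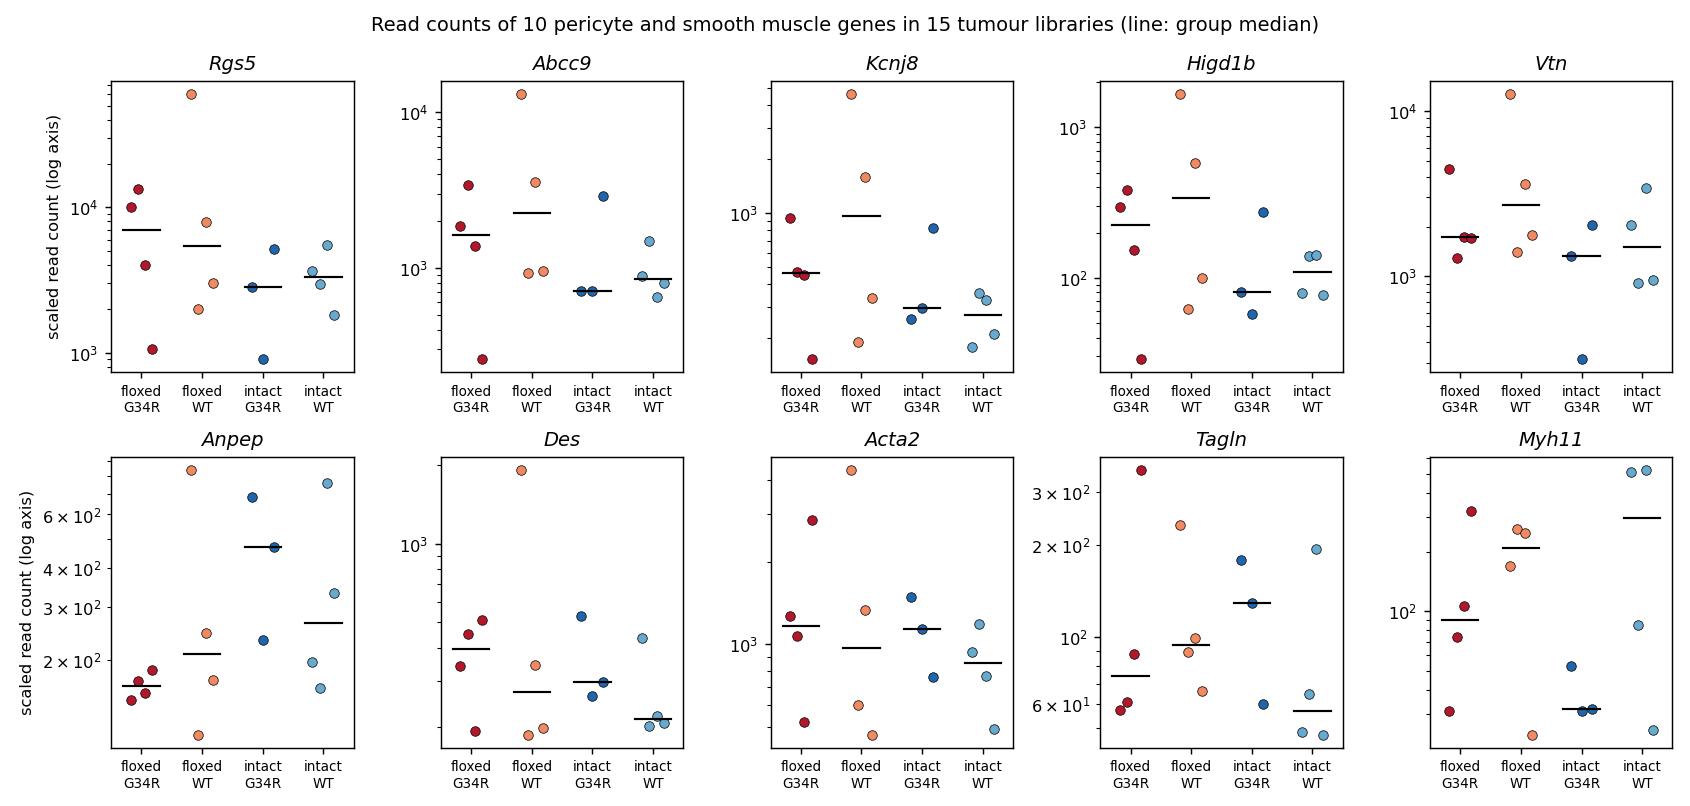
Scaled read count of each gene (log axis) by group, with a point for each of the 15 libraries and a line at the group median. A single ATRXfl_WT library is highest for 8 of the 10 genes, and Myh11 has its lowest group median in the 3 intact G34R libraries.

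Rgs5 encodes a regulator of G protein signalling and is among the most abundant pericyte transcripts. It had 10086, 13367, 3982 and 1066 scaled counts in ATRXfl_G34R, and 60010.2, 1993, 7885 and 3028 in ATRXfl_WT. In p53_G34R it had 2843, 907 and 5153, and in p53_WT 3659, 2951, 5467 and 1811. All 4 groups overlapped, and ATRXfl_WT replicate 1 stood 4.49-fold above the next library. From the lowest to the highest library Rgs5 spanned 66.1-fold.

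Abcc9 and Kcnj8 encode the regulatory subunit (SUR2) and the pore (Kir6.1) of the ATP-sensitive potassium channel of vascular muscle and pericytes. The genes are neighbours on chromosome 6 in mm10, with Kcnj8 at chr6:142564837-142571614 and Abcc9 at chr6:142587862-142702315, both on the minus strand and 16247 bases apart. Abcc9 had 1863, 3395, 1376 and 260 scaled counts in ATRXfl_G34R, 13045, 921, 3545 and 959.8 in ATRXfl_WT, 712, 712 and 2877 in p53_G34R, and 893, 1494, 649 and 795 in p53_WT. Kcnj8 had 937, 465, 453 and 153 scaled counts in ATRXfl_G34R, 4611, 189, 1583 and 337 in ATRXfl_WT, 256, 294 and 825 in p53_G34R, and 178, 357, 327 and 210 in p53_WT. The same libraries were high for both genes: ATRXfl_WT replicates 1 and 3 led, and ATRXfl_G34R replicate 4 was lowest. Per length, Kcnj8 stood at 0.450 to 1.93 times Abcc9, with a median of 1.15.

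Higd1b, a HIG1 domain gene enriched in brain pericytes, had the same highest pair of libraries as Abcc9 and Kcnj8 and the same lowest one. It had 293, 383, 153 and 28.9 scaled counts in ATRXfl_G34R, 1661, 61.9, 583 and 99.4 in ATRXfl_WT, 81.1, 57.1 and 276 in p53_G34R, and 79.2, 140.3, 143 and 76.8 in p53_WT. Vtn encodes vitronectin, an adhesive matrix protein that brain pericytes secrete. It had 4447, 1299, 1737 and 1715 scaled counts in ATRXfl_G34R, 12599, 1394, 3615 and 1767 in ATRXfl_WT, 1333, 317 and 2043 in p53_G34R, and 2041, 911, 3435 and 949.6 in p53_WT. Groups overlapped for both genes, and p53_G34R replicate 2 was lowest for Vtn.

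Anpep encodes aminopeptidase N (CD13), an enzyme on the surface of pericytes that fibroblasts and myeloid cells also carry. It had 149, 172, 157 and 186 scaled counts in ATRXfl_G34R, 839, 114, 247 and 173 in ATRXfl_WT, 685, 234 and 469 in p53_G34R, and 197, 163, 762 and 331 in p53_WT. Its 4 ATRXfl_G34R libraries were the tightest set, and all lay below the 3 p53_G34R libraries, while the wild-type groups overlapped.

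Acta2 encodes smooth muscle alpha-actin, and reads from near-identical actin genes could be split by the counting, so its level is uncertain to that extent. It had 1268, 1069, 521 and 2851 scaled counts in ATRXfl_G34R, 4338, 600.5, 1341 and 469 in ATRXfl_WT, 1490.3, 1143 and 763 in p53_G34R, and 938, 1182, 766 and 492 in p53_WT. The highest library of Acta2 and that of Rgs5 were the same, but in ATRXfl_G34R replicate 4 Acta2 was the second highest of all 15 while Rgs5 was the second lowest. The ratio of Acta2 to Rgs5, per length, accordingly ran from 0.150 in ATRXfl_WT replicate 1 to 5.54 in ATRXfl_G34R replicate 4.

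Contractile genes are classic targets of serum response factor, which binds the CArG box. Promoter windows of 7 of the 10 genes were in the RefSeq table (build GRCm38.p6). Tagln, Myh11 and Higd1b had no window there, so they were not searched. The strict box (CC, 6 bases of A or T, GG) was found in 0 of 7 in the 250 bases before the annotated start. It was found in 1.47% of all 32851 windows. A looser form, with at least 5 of the 6 middle bases A or T, was chosen after that. Among the 7 it was found only in Acta2, where there were 2 boxes, and it was found in 8.59% of all windows. Both lie on the minus strand, and the box reads the same in form on both strands. They are printed in capitals with 10 bases on each side, as the only matches among the 7. With so few windows and a form loosened afterwards, 1 gene with a match is not read as a result. Of the genes searched, only Acta2 and Des are contractile ones.
Acta2 box 1, chr19:34255438-34255467: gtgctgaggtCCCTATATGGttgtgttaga
Acta2 box 2, chr19:34255388-34255417: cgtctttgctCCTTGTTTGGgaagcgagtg
They begin 84 and 34 bases before the RefSeq start. GENCODE places the start of Acta2 217 bases further upstream, so both boxes lie downstream of that start. A match of letters is a description and not a site of binding.

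Tagln encodes transgelin (SM22), an actin-binding protein of smooth muscle. It had 57.3, 60.98, 87.9 and 353 scaled counts in ATRXfl_G34R, 234, 88.8, 99.3 and 66.3 in ATRXfl_WT, 179, 129 and 60.3 in p53_G34R, and 48.8, 64.8, 194 and 47.7 in p53_WT. The strand setting of the counting is not given in the sources used here. An antisense gene that overlaps Tagln over 3627 bases had 14 to 91 reads. Pcsk7, also on the opposite strand, overlaps Tagln over 108 bases and had 957 to 2152 reads. Part of the low Tagln values could thus not be told apart from these genes. Myh11 encodes smooth muscle myosin heavy chain, the most specific contractile marker. It had 31.1, 74.2, 107 and 323 scaled counts in ATRXfl_G34R, 170.1, 263, 251 and 23.7 in ATRXfl_WT, 53.001, 31.1 and 31.9 in p53_G34R, and 509, 85.0, 521 and 24.9 in p53_WT. Myh11 was highest in p53_WT replicates 3 and 1, low in all p53_G34R libraries, and its values overlapped between all 4 groups.

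Des encodes desmin, an intermediate filament of muscle cells and pericytes. It had 341, 450.2, 194 and 510.0 scaled counts in ATRXfl_G34R, 1908, 187, 343 and 198 in ATRXfl_WT, 530.0, 261 and 295 in p53_G34R, and 438, 201, 221 and 207 in p53_WT. It was 3.60-fold higher in ATRXfl_WT replicate 1 than in the next library, and all 4 groups overlapped.

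**Figure D2:**
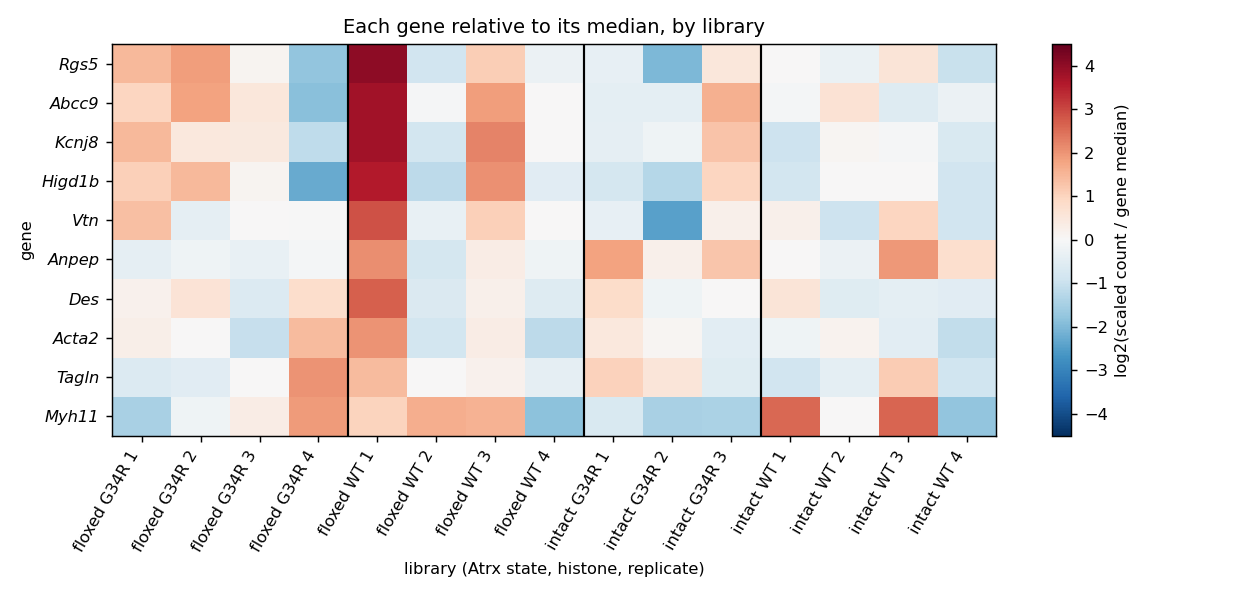
Each gene in each library as log2 of its scaled count over the gene's median across the 15 libraries, with lines between the groups. Rgs5, Abcc9, Kcnj8 and Higd1b are all highest in ATRXfl_WT replicate 1, and Tagln and Myh11 differ from them most in ATRXfl_G34R replicate 4.

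The series was designed to examine loss of Atrx and expression of H3.3G34R. For Atrx over both histones, 8 floxed against 7 intact libraries, 9 of 10 genes had a positive log2 difference, with a median of 0.65 against -0.0022 over all 17776 genes tested. None passed an adjusted p of 0.05 by limma, where 0.107% of all genes did, and 0 passed an unadjusted p under 0.05, where 5.48% did. Vtn came closest, at a log2 difference of 1.07 (SE 0.51, 95% interval -0.016 to 2.16, limma adjusted p = 0.914). Rgs5 had 1.12 (SE 0.70), Higd1b 0.97 (SE 0.71), Kcnj8 0.94 (SE 0.63) and Abcc9 0.85 (SE 0.64), while Anpep had -0.75 (SE 0.44). Without ATRXfl_WT replicate 1 the median was 0.43 and 7 of 10 were positive, with Vtn at 0.75, Rgs5 at 0.61 and Anpep at -1.08.

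The list of 19 other pericyte genes had the same sign: 18 were positive, with a median log2 difference of 0.55, 0 called and 3 at an unadjusted p under 0.05. These were Art3 (1.31, SE 0.54), Mcam (1.02, SE 0.46), which encodes the adhesion molecule CD146, and Atp13a5 (1.91, SE 0.87), a transporter gene specific to brain pericytes. Mcam and Cspg4 of this list averaged 12934 and 34054 scaled counts, against 3432 for Pdgfrb. Both were lowest in p53_WT replicate 3, at 1216 and 2215, where Rgs5 and Vtn were above their medians. Which cells in these tumours express Mcam and Cspg4 was not tested. Of 11 other contractile genes tested, 9 were positive, with Smtn, encoding smoothelin, at 1.01 (SE 0.31, limma adjusted p = 0.620). Smtn averaged 2528 scaled counts, against 167 for Myh11, and was also lowest in p53_WT replicate 3, at 673. Which cells express Smtn was not tested either. Endothelial genes had the same sign, with 17 of 18 positive and a median of 0.55, and fibroblast genes the opposite one, with 10 of 11 negative and a median of -1.13. The part of these cells in the differences was not tested.

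Under H3.3G34R, floxed against intact, 8 of 10 genes had a positive log2 difference, but the median was only 0.12. It was -0.0082 without p53_G34R replicate 2 and 0.69 without p53_G34R replicate 3. By limma 0 of 10 genes passed, where 0.0229% of all genes did. Anpep was the exception among the 10: it alone had an unadjusted p under 0.05, where 3.39% of all genes had, and it alone had groups that did not overlap, where 4.64% of all genes had. In this table's own scaling it averaged 166 ± 16.1 (SD, n = 4) in ATRXfl_G34R and 462 ± 222 (SD, n = 3) in p53_G34R, and its log2 difference was -1.35 (SE 0.38, 95% interval -2.22 to -0.48, limma adjusted p = 0.9999). DESeq2 called it at -1.48 with an adjusted p of 0.0434, where 0.538% of genes were called. The authors' deposited table holds the same DESeq2 call (-1.48, SE 0.40, adjusted p = 0.0434), and it calls 0.538% of its genes. Both come from the same reads by the same method, so they count as a single call. Fibroblast genes had the same sign in this comparison: 8 of 9 tested were negative, with Col1a1 at -2.04 (SE 0.57), Col1a2 at -2.43 (SE 0.77) and Col3a1 at -2.17 (SE 0.70), the chains of fibrillar collagens. Of the 10 myeloid genes 6 were positive, with a median of 0.21, while Mrc1, encoding the mannose receptor of perivascular macrophages, was at -2.05 (SE 0.51). The part of these cells in the Anpep difference was not tested.

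Under wild-type H3.3, floxed against intact, 8 of 10 genes had a positive log2 difference, with a median of 0.84. None passed by limma, where 0.0335% of all genes did, 0 had an unadjusted p under 0.05, where 3.76% did, and 0 had groups that did not overlap, where 2.65% did. Kcnj8 had 1.68 (SE 0.90) and Abcc9 1.47 (SE 0.78). DESeq2, which compares group means of counts, gave a median of 1.35, and the authors' deposited table gives 2.64 (SE 0.85) for Kcnj8, 2.26 (SE 0.81) for Abcc9 and 2.38 (SE 0.94) for Rgs5, none of them called. Without ATRXfl_WT replicate 1 the median was 0.17, with Kcnj8 at 0.85, Abcc9 at 0.68 and Rgs5 at 0.17 in place of 1.18. The differences of these 3 genes under wild-type H3.3 were thus much smaller without that library. Of the other cell types' genes in this comparison, 16 of 18 endothelial ones were positive (median 0.69), 11 of 12 of neurons and myelin were negative (median -2.51) and 10 of 11 fibroblast ones were negative (median -0.84). Their part in the result was not tested.

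**Figure D3:**
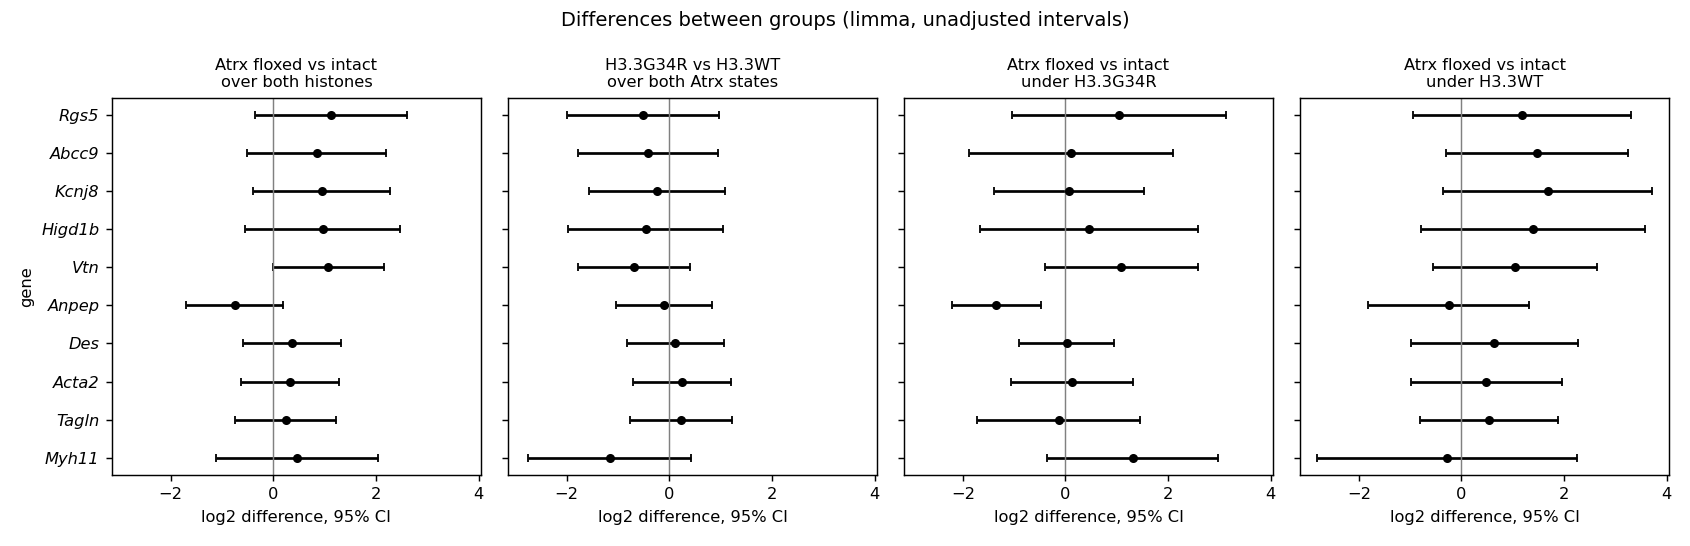
Log2 difference of each gene (point) with its unadjusted 95% interval (bar) from limma, for Atrx floxed against intact over both histones, for H3.3G34R against wild type over both Atrx states, and for the Atrx difference under each histone. Only the interval of Anpep under H3.3G34R leaves out 0.

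For H3.3G34R over both Atrx states, 7 H3.3G34R against 8 wild-type libraries, 0 of 10 genes passed by limma, where 0% of all genes did, and 0 had an unadjusted p under 0.05, where 2.37% did. The median log2 difference was -0.33, with Myh11 at -1.17 (SE 0.74), Vtn at -0.70 (SE 0.51) and Acta2 at 0.24 (SE 0.45). Without ATRXfl_WT replicate 1 the median turned to 0.13, and with any other library left out it lay between -0.65 and -0.035. In the list of other pericyte genes Tbx18, a transcription factor of mural cells, had -1.80 (SE 0.42, limma, adjusted p = 0.999).

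In Atrx-floxed tumours 9 of 10 genes had a negative log2 difference with H3.3G34R, and the median was -0.59. None passed by limma (0% of all genes did), 0 had an unadjusted p under 0.05 (2.79% did), and 0 had groups that did not overlap (2.16% did). Without ATRXfl_WT replicate 1 the median was -0.024 and Des turned from -0.16 to 0.59, Rgs5 from -0.57 to 0.44. The median was -1.03 without ATRXfl_WT replicate 2, -0.98 without replicate 4 of that group, -1.05 by DESeq2 and by edgeR, and -0.31 with libraries of a common title code summed. Endothelial genes had the same sign, with 17 of 18 negative (median -0.63), and all 12 neuron and myelin genes were positive (median 1.46). In Atrx-intact tumours the median was 0.38, with 7 of 10 positive, and it was -0.13 without p53_G34R replicate 3 and 0.18 without replicate 1 of that group. All 12 neuron and myelin genes were negative there (median -2.68). The part of these cells in either comparison was not tested. Of the 10 genes in Atrx-intact tumours none passed by limma (0% of all genes did), 0 had an unadjusted p under 0.05 (1.47% did), and 0 had groups that did not overlap (2.61% did). Myh11 had the widest difference there, at -2.02 (SE 1.07, 95% interval -4.49 to 0.46), with 2 high p53_WT libraries. It was -1.44 without p53_WT replicate 3 and -2.88 without p53_WT replicate 4. The authors' deposited DESeq2 value for Myh11 was -2.88 (SE 0.92, adjusted p = 0.441), not called.

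The difference between these effects, which is the interaction of Atrx state and histone, was called for 0 of 10 genes (0% of all genes were), with 0 at an unadjusted p under 0.05 (2.05% were). It was -1.61 (SE 1.23) for Kcnj8, -1.36 (SE 1.27) for Abcc9 and 1.58 (SE 1.49) for Myh11. Without ATRXfl_WT replicate 1 it was -0.78 for Kcnj8 and -0.57 for Abcc9, and the median of the 10 turned from -0.65 to 0.028, while Myh11 had 0.79 without ATRXfl_WT replicate 4. By DESeq2 the median was -1.20. For tumours with both changes against tumours with neither, 0 of 10 were called (0.0227% of all genes were), 0 had an unadjusted p under 0.05 (4.37% had) and 0 had groups that did not overlap (2.94% had). Over all 8 comparisons edgeR called none of the 10 genes, in a background of 0.012% of tests, and DESeq2 called Anpep once, in a background of 0.237%.

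Within groups the genes varied more than most. The residual SD on the log2 scale was 0.90 for Anpep, 0.95 for Des, 0.96 for Tagln and 0.98 for Acta2, and 1.14 to 1.58 for the other 6, against a median of 0.60 over 17776 genes. Myh11, Rgs5 and Higd1b stood at the 91.4, 91.2 and 90.9 percentile of that spread.

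To describe which of the genes varied together over the 15 libraries, 45 pairs were correlated on log2 (scaled count + 1), with permutation p-values adjusted over the 45. Rgs5, Abcc9, Kcnj8, Vtn and Higd1b formed 10 pairs with Pearson's r of 0.58 to 0.96, of which 9 passed an adjusted p of 0.05. Abcc9 and Higd1b had r = 0.96 (Spearman's rho 0.84, permutation p = 1e-05, adjusted p = 0.00015), the smallest p that 100000 permutations can give, and Rgs5 and Higd1b had r = 0.94 (rho 0.95, permutation p = 1e-05). After leaving out the 2 libraries farthest from the median of the gene named first, these were 0.91 and 0.91. The channel genes Abcc9 and Kcnj8 had r = 0.91 (rho 0.86, permutation p = 3e-05, adjusted p = 0.00027) and 0.78 without the 2 farthest, and r of 0.89 for deviations from the group means.

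Vtn was the loosest of the 5. Its r with Abcc9 was 0.58 (permutation p = 0.0245, adjusted p = 0.0847), and only 0.15 without the 2 farthest libraries, so that this relation rests on them. Without ATRXfl_WT replicate 1, chosen after the data were seen, 8 of the 11 pairs past the threshold remained past it, and the 3 lost were Acta2 with Tagln (r = 0.58, adjusted permutation p = 0.135), Kcnj8 with Vtn (r = 0.48, adjusted permutation p = 0.321) and Vtn with Higd1b (r = 0.50, adjusted permutation p = 0.265). The same 3 pairs did not pass by Spearman's rho over all libraries (adjusted permutation p = 0.193, 0.195 and 0.079).

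The contractile genes did not form a block of the same kind. Acta2 and Des had r = 0.86 (rho 0.80, permutation p = 9e-05, adjusted p = 0.000675), 0.71 without the 2 farthest and 0.77 without ATRXfl_WT replicate 1. Acta2 and Tagln had r = 0.66 (adjusted permutation p = 0.0279), which became 0.28 without the 2 farthest. None of the 15 pairs between Acta2, Tagln or Des and the 5 pericyte genes passed, with r from -0.17 to 0.63, and Tagln with Rgs5 had r = 0.0025. Without ATRXfl_WT replicate 1 these 15 pairs had r from -0.63 to 0.17, and again none passed. None of the 9 pairs with Myh11 passed, with r from -0.09 to 0.42, nor did any of the 9 with Anpep, with r from 0.06 to 0.49. For deviations from the group means r with Anpep ran from 0.23 to 0.77, the highest with Vtn, and without p53_WT replicate 3 Anpep with Des passed (r = 0.66).

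**Figure D4:**
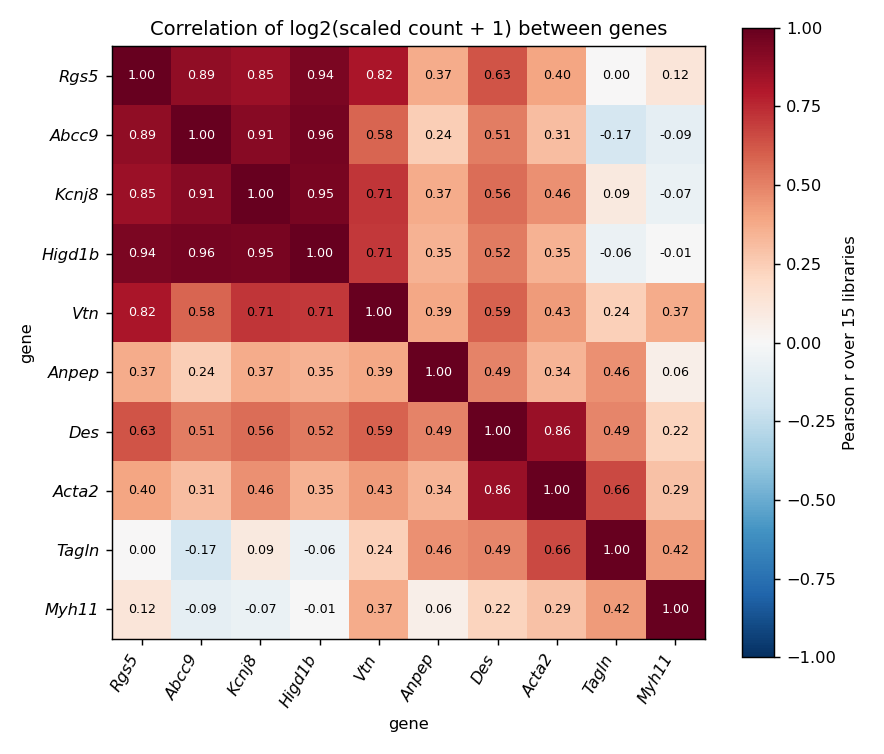
Pearson's r over the 15 libraries for each pair of genes, on log2 (scaled count + 1). Rgs5, Abcc9, Kcnj8 and Higd1b form a block with r of 0.85 to 0.96, and Myh11 has no r above 0.42.

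Beyond the list, the genes most like each of them by Pearson's r over the 15 libraries, among 14491 protein-coding genes with a mean of at least 10, are given as a description. Ednra, the endothelin A receptor gene of mural cells, was the closest to Abcc9 (r = 0.96) and Higd1b (r = 0.96) and among the 3 closest to Rgs5 (r = 0.92) and Kcnj8 (r = 0.92). The gap junction gene Gjc1 was closest to Kcnj8 (r = 0.93), and Foxs1, a transcription factor gene of pericytes, was closest to Des (r = 0.96). Lmod1, encoding leiomodin of smooth muscle, was the second closest to Myh11 (r = 0.82) after Nog (r = 0.85), and Csrp2, encoding a smooth muscle LIM protein, was closest to Acta2 (r = 0.88). Tagln stood nearest to Sh3bgrl3 (r = 0.89), Anpep to Pkib (r = 0.87) and Vtn to Naalad2 (r = 0.90).

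Members of the list were also set against the summed levels of 5 other gene lists, in 50 relations chosen after the data were seen and adjusted over the 50. Rgs5 went with the summed endothelial genes at r = 0.80 (rho 0.74, permutation p = 0.0011, adjusted p = 0.0333) and 0.61 without the 2 farthest libraries, which were ATRXfl_WT replicate 1 and p53_WT replicate 3. Higd1b had r = 0.78 (adjusted permutation p = 0.0333), Kcnj8 0.79 (adjusted permutation p = 0.0382) and Vtn 0.72 (adjusted permutation p = 0.0420), and Vtn had 0.34 without the 2 farthest. Anpep was the only 1 of the 10 to pass with the fibroblast genes, at r = 0.71 (rho 0.74, adjusted permutation p = 0.0382), and 0.55 without the 2 farthest. These passes are for Pearson's r, and by Spearman's rho no relation passed. Its smallest adjusted permutation p was 0.0672, for Rgs5 with the endothelial genes and for Anpep with the fibroblast genes. None of the 30 relations with neuron and myelin, myeloid or hypoxia genes passed, though Tagln had r = 0.51 with the first of these and 0.55 with the second.

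**Figure D5:**
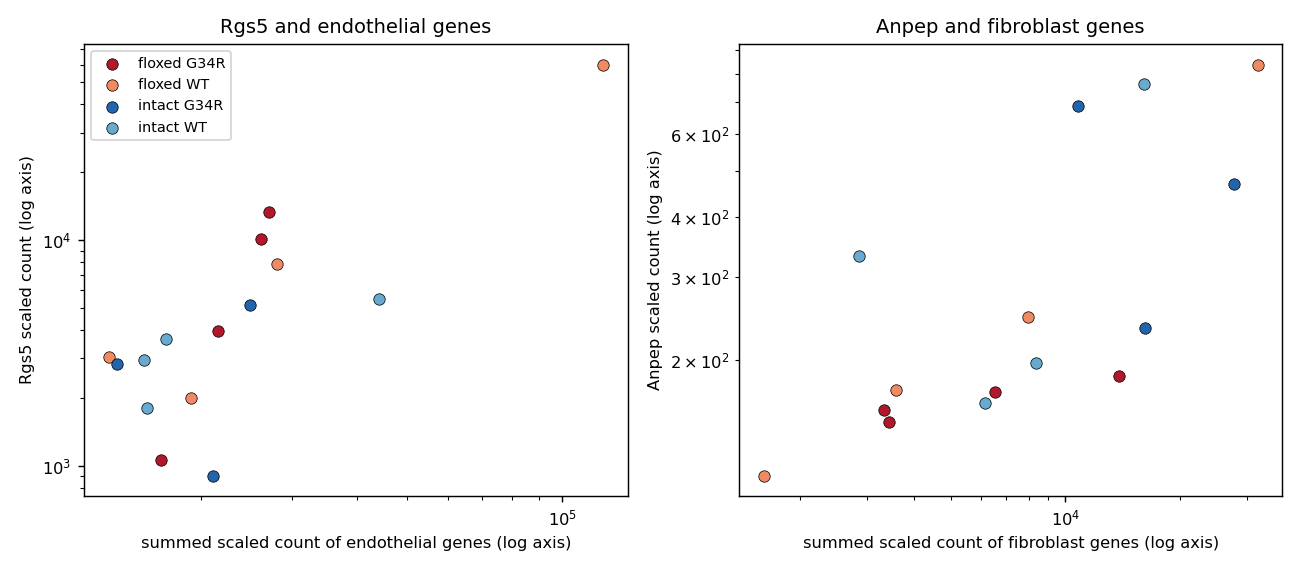
Scaled count of Rgs5 against the summed scaled count of 18 endothelial genes, and of Anpep against that of 12 fibroblast genes, on log axes, with a point for each library coloured by group. ATRXfl_WT replicate 1 is highest on all 4 measures.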

How the data were processed

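Tumour RNA was sequenced in 15 TruSeq mRNA libraries, grouped by genotype and histone from the labels. The submitters' processing notes name STAR 2.7, HTSeq, DESeq2 and the build mm10. Settings, strand option and gene models were not given in the sources used here. In 5 tables, 1 per pair of groups, the authors deposited a signal for each library: the read count of each gene divided by a size factor of the library within that table. The same tables, per the file headers, give the log2 fold change of the authors, its error and the adjusted p-value.

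Dividing each column by its smallest step gave whole reads for 100% of 875108 non-zero values (tolerance 0.01). These reads were used in the count tests and scaled over all 15 libraries by the median of ratios. Pairs were tested on each table's own values, and the interaction and pooled differences on the rescaled reads, with limma 3.58.1 (trend, robust) in R 4.3.3 on log2 (value + 1), keeping genes whose mean was 10 or more. P-values were adjusted by the Benjamini-Hochberg method over all genes tested, at 0.05. The pseudocount understates the change of low genes. Alternatives were pseudocounts of 0.5 and 5, no filter, edgeR 4.0.16 and DESeq2 1.42.0 on the reads, a joint fit of the 4 groups, summing of libraries with a common title code, each library left out, and, chosen after seeing the data, TMM scaling. Pairs of groups share libraries between comparisons. Ensembl IDs were matched to GENCODE vM21 (54165 of 54232). The fit was also run on simulated counts. These were set to vary less between libraries than the 10 genes did, so the run does not show how the fit performs on them. The genes described and the 11 lists were chosen with earlier results of these data known. The named genes are all 10, up to 3 of each other list with the smallest p in the comparison described, and the 3 genes most like each of the 10, of which the text names some. Replicate numbers follow the order of deposit and pair nothing.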

Additional observations from a re-analysis of the deposited data

Results flagged for a closer look

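Of 30 sets of 4 libraries (10 genes in the 3 groups of 4), 6 held a library far from the other 3 by Dixon's test on the scaled counts. The rate of about 1 in 20 that chance flags holds for normally distributed values and independent sets, and these counts are skewed and the genes correlated. On log2 (scaled count + 1), chosen after seeing the data, 1 of the 6 stayed past the threshold, Des in p53_WT replicate 1. Rgs5 was 60010.2 scaled counts in ATRXfl_WT replicate 1 against 1993 to 7885 in the others, and Des was 1908 there against 187 to 343. Tagln was 353 in ATRXfl_G34R replicate 4 against 57.3 to 87.9, and 194 in p53_WT replicate 3 against 47.7 to 64.8. Des was 438 in p53_WT replicate 1 against 201 to 221. Vtn was 4447 in ATRXfl_G34R replicate 1 against 1299 to 1737. In the first of these libraries the endothelial sum was also the highest of all 15, and in p53_WT replicate 3 the neuron and myelin sum was.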

How the results depend on the processing

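No alternative to limma moved any of the 10 genes past the threshold except DESeq2, which called 1, Anpep under H3.3G34R. In 80 values each, TMM scaling, both other pseudocounts and no filter changed 0 signs, edgeR, DESeq2 and title codes summed changed 5 each, and leaving out single libraries changed 68 of 830. Counts over all genes moved most with DESeq2: 34 for the histone in Atrx-floxed tumours, 11 in Atrx-intact tumours, 113 and 73 for Atrx under H3.3G34R and wild type, 77 for both changes against neither, 10 for the interaction, 104 for Atrx and 7 for the histone over both, against 0, 0, 4, 6, 4, 0, 19 and 0 with limma. Under H3.3G34R the Atrx count was 12 with no filter and 0 with edgeR or title codes summed, under wild type 2 with either, and for both changes against neither 2 with edgeR, title codes summed or a pseudocount of 0.5. Leaving out single libraries gave 0 to 5, 2 to 8 and 2 to 8 for these 3. The cause was not tested. Of the 11 correlated pairs, 8 passed without ATRXfl_WT replicate 1 and 13 pairs passed without p53_WT replicate 3. The within-group SD of the 10 genes, 0.90 to 1.58 (log2), and the 3 or 4 libraries a group limit the precision. No paired analysis was possible because the replicate numbers come from the order of deposit.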
